A study of Mus musculus with 4 samples.

Results

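The keratin genes of mouse colon tumours were described across 4 RNA sequencing libraries, of which 2 carry the label Gsk3b (IEC-/-) and the other 2 Gsk3b (IEC+/+). Members were all gene symbols of the count files made of Krt and a number, 51 of 26214 symbols. Of these, Krt7, Krt8, Krt18, Krt19 and Krt20 were set apart as the 5 simple keratins, which left 46 others. Tumours of both groups were induced with AOM/DSS, a regimen that pairs the mutagen azoxymethane with dextran sulfate sodium, an irritant of the colonic lining. By the labels, the groups differ in Gsk3b of intestinal epithelial cells (IEC), lost in IEC-/- and intact in IEC+/+. The labels give neither the driver of the deletion nor the age of the animals. Nor do they tell whether the 2 libraries of a group are different animals, and p-values therefore measure only the spread between these samples, which may be technical. The question named by the series title is how loss of GSK3B, a kinase that marks beta-catenin for degradation, alters the tumour transcriptome.

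Keratins are the intermediate filament proteins of epithelia. A filament is built from pairs of an acidic type I chain and a basic type II chain, so each epithelium transcribes at least a pair of them. Simple, single-layered epithelia such as the colonic mucosa carry KRT8 with KRT18 and KRT19, and KRT20 marks the mature cells of the intestinal surface. Stratified squamous epithelia, such as skin, oesophagus and the anal canal, carry KRT5 with KRT14 in their basal layer and other pairs above it, and the hair and nail carry a further set.

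Total counts were 25472503 to 27218515 per library, and 26 of the 51 keratins passed the filter on low counts. The simple keratins held most keratin reads in every library, and IEC-/- replicate 2 also had a large stratified component. Levels are given in counts per 1000000 reads of scaled library size (CPM). The tissue was bulk tumour, so fewer cells of a type and less RNA per cell cannot be told apart. Gsk3b itself had 152 and 149 CPM in IEC-/- tumours, against 170 and 157 in IEC+/+ tumours. Which exons were deleted is not stated in the labels, so this level does not check them.

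The stretches upstream of 5 keratin genes are shown because these genes carry the main patterns, Krt20, Krt36 and Krt84 on the lower side and Krt5 and Krt13 as the genes that set 1 library apart. Each is the 250 bases before the start in its RefSeq promoter entry (GRCm38.p6, minus strand, 5′ to 3′). For Krt36 that start lies inside the RefSeq gene span of 100102012 to 100109487, so its window is within the gene. Every TATA-like run, ATAAAA, is in capitals on either strand.
Krt20, chr11:99438154-99438403: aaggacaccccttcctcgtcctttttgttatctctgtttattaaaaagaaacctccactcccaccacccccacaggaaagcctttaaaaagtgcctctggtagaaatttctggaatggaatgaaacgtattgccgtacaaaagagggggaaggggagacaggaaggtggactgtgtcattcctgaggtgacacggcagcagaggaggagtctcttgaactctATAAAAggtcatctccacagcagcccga
Krt36, chr11:100105627-100105876: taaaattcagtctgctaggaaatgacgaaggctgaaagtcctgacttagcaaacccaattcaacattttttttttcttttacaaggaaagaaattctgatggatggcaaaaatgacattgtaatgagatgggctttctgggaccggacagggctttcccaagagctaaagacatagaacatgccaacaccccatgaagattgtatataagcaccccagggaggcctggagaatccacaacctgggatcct
Krt84, chr15:101532821-101533070: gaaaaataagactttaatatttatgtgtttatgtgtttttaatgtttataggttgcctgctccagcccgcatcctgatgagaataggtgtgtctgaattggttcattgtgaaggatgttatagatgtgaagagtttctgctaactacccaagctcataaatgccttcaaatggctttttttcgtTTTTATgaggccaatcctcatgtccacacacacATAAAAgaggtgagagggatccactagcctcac
Krt5, chr15:101712906-101713155: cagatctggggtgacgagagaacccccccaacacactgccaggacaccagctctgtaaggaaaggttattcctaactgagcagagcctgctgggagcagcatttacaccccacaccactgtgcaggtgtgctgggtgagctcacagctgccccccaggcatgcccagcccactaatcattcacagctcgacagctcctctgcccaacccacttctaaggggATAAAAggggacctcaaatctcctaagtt
Krt13, chr11:100121567-100121816: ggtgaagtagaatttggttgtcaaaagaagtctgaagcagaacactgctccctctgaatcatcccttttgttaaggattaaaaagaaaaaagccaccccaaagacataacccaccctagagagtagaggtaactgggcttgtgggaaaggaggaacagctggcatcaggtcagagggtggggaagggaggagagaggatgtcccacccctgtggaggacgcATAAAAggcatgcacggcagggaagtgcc

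The run ATAAAA begins 28 bases before the start in Krt20, 29 in Krt5 and Krt13 and 33 in Krt84, and these letters are not in the window of Krt36. Krt84 holds a further one on the other strand. The Krt36 window does hold the letters tatataa, another TATA form that was not searched for. The run was chosen after the sequences were read; 17.0% of the 32851 promoters in the RefSeq table hold it in the same window on either strand, and 19 of 36 keratin entries do. The letters TTTATNG, a core bound by caudal (CDX) factors, are in the windows of Krt20 and Krt84, in those of 14 of the 36 keratin entries and in 9.81% of all promoters. In Krt20 this match overlaps the TATA-like run. The AP-1 letters TGANTCA are in the window of Krt13, in those of 2 of the 36 keratin entries and in 6.75% of all promoters. A match is a description of letters and not of a bound site.

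Among the simple keratins, Krt20 fell in IEC-/-, Krt8 and Krt19 had lower values there without passing the test, and Krt18 and Krt7 had values close to those of IEC+/+. Krt20 (chromosome 11, 99428385 to 99438153, RefSeq, GRCm38.p6, as are all gene positions given here) had 51.4 and 26.3 CPM in IEC-/- tumours, against 327 and 239 in IEC+/+ tumours. Both IEC-/- libraries lay far below both IEC+/+ libraries. Means were 38.9 ± 17.8 CPM in IEC-/- tumours and 283 ± 62.1 CPM in IEC+/+ (SD, n = 2 each), a 7.27-fold fall (log2 fold change -2.86, SE 0.36, edgeR quasi-likelihood adjusted p = 0.0461). The call was lost when either IEC+/+ library was left out, with an adjusted p of 0.417 without replicate 1 and 0.210 without replicate 2, and no gene of the series was called in either of these fits. It was also lost with total-count scaling (adjusted p = 0.0510).

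Krt8, the type II chain of simple epithelia (chromosome 15, 101996711 to 102004342), had 1623 and 1423 CPM in IEC-/- tumours, against 3302 and 2615 in IEC+/+ tumours. Krt19, a small type I chain that lacks the usual tail (chromosome 11, 100140810 to 100145926), had 1090 and 1130 CPM in IEC-/- tumours, against 2362 and 1918 in IEC+/+ tumours. For neither gene did the groups overlap. The log2 fold changes were -0.96 for Krt8 (SE 0.16, adjusted p = 0.0722) and -0.95 for Krt19 (SE 0.14, adjusted p = 0.0614). Neither passed by edgeR's quasi-likelihood test with the expression filter and all libraries. Both passed with no filter (adjusted p = 0.0343 for Krt8 and 0.0276 for Krt19), and Krt8 also without IEC-/- replicate 1 (adjusted p = 0.0498). DESeq2 called both, with adjusted p-values of 8.36e-06 and 7.13e-07, as did edgeR's exact test (adjusted p = 0.00277 and 0.00151). Of the 75-base stretches of the Krt8 transcript, 22.0% also occur in its processed pseudogene Krt8-ps, so part of its reads could be shared with that copy.

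Krt18, the usual type I partner of KRT8 (chromosome 15, 102028216 to 102032026), had 457 and 544 CPM in IEC-/- tumours, against 498 and 550 in IEC+/+ tumours. Krt7, a type II chain of ductal and glandular epithelia (chromosome 15, 101412403 to 101427806), had 419 and 432 CPM in IEC-/- tumours, against 384 and 389 in IEC+/+ tumours. The Krt18 groups overlapped, and the Krt7 groups lay close together with IEC-/- slightly higher. The log2 fold change of Krt18 was -0.07, with a 95% interval of -0.42 to 0.28, and its sign turned with total-count and epithelial-list scaling and without IEC-/- replicate 1 or IEC+/+ replicate 2. That of Krt7 was 0.14, with an interval of -0.14 to 0.41. Neither passed the test (adjusted p = 0.868 and 0.599).

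**Figure D1:**
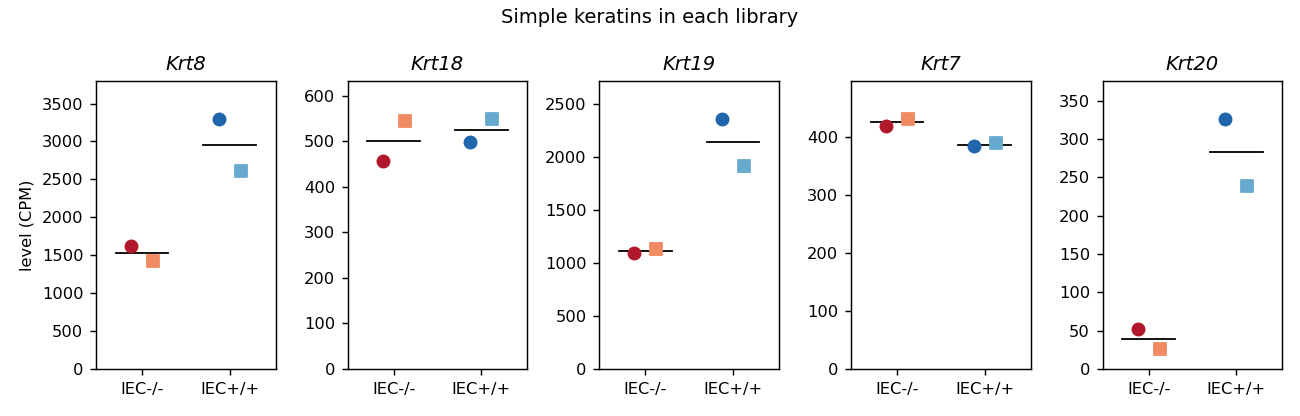
Level in CPM (vertical axis, each panel from 0) of the 5 simple keratins in the IEC-/- libraries (left, red tones) and the IEC+/+ libraries (right, blue tones); circles are replicate 1, squares replicate 2 and lines group means. Krt20 lay at 51.4 and 26.3 CPM in IEC-/- tumours and 327 and 239 CPM in IEC+/+, while the Krt18 groups overlapped.

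The make-up of the simple keratin pool differed between the groups. For each Krt18 read there were 3.55 and 2.62 Krt8 reads in the IEC-/- libraries, against 6.63 and 4.76 in the IEC+/+ libraries. Krt20 made up 1.41% and 0.740% of simple keratin counts in IEC-/-, against 4.75% and 4.18% in IEC+/+. Both ratios were lower in both IEC-/- libraries. Krt7 was larger as a share of the pool, at 11.5% and 12.1% in IEC-/-, against 5.59% and 6.81% in IEC+/+. Its own CPM was close in the groups, and Krt8 and Krt19, which hold most of the pool, were lower in IEC-/-. With 2 libraries in each group an exact permutation test cannot give a two-sided p below 0.333, so these ratios are descriptions.

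Per kilobase of the principal transcript, the order of levels was Krt8, Krt19, Krt18 in every library. In IEC-/- replicate 2 the first pair was nearly level, at 727 CPM per kilobase for Krt8 and 717 for Krt19. Below them, Krt7 and Krt20 changed places between the groups on this scale only, while in CPM Krt7 was above Krt20 in every library. The transcript lengths used were 4094 bases for Krt7, 1927 for Krt20 and 1958 for Krt8, and no other length was tried. Krt20 had 26.7 and 13.6 CPM per kilobase in IEC-/-, under Krt7 at 102 and 105. In IEC+/+ Krt20 had 170 and 124 CPM per kilobase, above Krt7 at 93.8 and 95.03. The summed type II simple chains (Krt7, Krt8) outnumbered the summed type I chains (Krt18, Krt19, Krt20) by 1.28 and 1.09 to 1 in read counts in IEC-/-, against 1.16 and 1.11 to 1 in IEC+/+. The IEC-/- libraries lay on either side of the IEC+/+ libraries in this ratio, so the groups overlapped. Per kilobase the ratio was 0.899 and 0.750 in IEC-/-, against 0.883 and 0.830 in IEC+/+, which turns the sign of the difference.

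Krt36 was the other keratin that fell. It encodes a type I keratin known from hair, nail and the filiform papillae of the tongue (chromosome 11, 100102012 to 100109487). It had 49.8 and 33.6 CPM in IEC-/- tumours, against 164 and 126 in IEC+/+ tumours, a 3.48-fold fall (log2 fold change -1.80, SE 0.24, adjusted p = 0.0487). Per kilobase it stood at 29.8 and 20.1 CPM in IEC-/- tumours, above Krt20 in the same libraries, and at 98.4 and 75.5 CPM in IEC+/+, below Krt20. Krt36 lost its call with limma-voom, RLE or total-count scaling (adjusted p = 0.0549, 0.0506 and 0.0565) and without either IEC+/+ library (0.426 and 0.210).

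Krt84, a type II keratin of nail and tongue papillae (chromosome 15, 101525026 to 101532820), was low but ordered alike. It had 3.38 and 1.11 CPM in IEC-/- tumours, against 14.5 and 9.69 in IEC+/+ tumours, with no overlap (log2 fold change -2.43, SE 0.57). It did not pass by edgeR's quasi-likelihood test (adjusted p = 0.133). It was called by DESeq2 (adjusted p = 0.000713) and by edgeR's exact test (adjusted p = 0.00480). The 3 tested genes of the hair shaft list did not share a direction, and 0 passed by edgeR's quasi-likelihood test. At an unadjusted p under 0.05 by that test 1 was lower and 0 higher, against 9.12% and 7.50% of all genes. DESeq2 and the exact test each called 1, against 7.77% and 5.3% of all genes, and limma-voom 0, against 0.469%. Foxn1, a regulator of hair differentiation, had a log2 fold change of -1.77 (adjusted p = 0.164), Lef1, a Wnt pathway factor, 0.32 (adjusted p = 0.329) and Tchh, the trichohyalin gene, 0.17 (adjusted p = 0.913), with a list median of 0.17. Padi3 and Msx2 had most reads in IEC-/- replicate 2 and were not tested, as the expression filter asks for enough reads in 2 libraries. Hoxc13, a regulator of hair keratins, was at 0 in all libraries, and 13 of 56 keratin-associated protein genes had any count, at most 14 in a library. The hair keratins Krt32, Krt35, Krt39, Krt83 and Krt87 did not pass and stayed between 0.309 and 6.26 CPM in all libraries; Krt83 and Krt87 share sequence with close paralogs, and their separate values are uncertain.

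Genes of mature absorptive cells, the differentiated colonocyte list, were also lower in IEC-/-. Their summed level was 127 and 236 CPM in IEC-/- tumours, against 2009 and 980 in IEC+/+ tumours. Of 10 genes tested 4 fell (the transporter or channel genes Aqp8 and Slc5a8, Clca4a, and the protease gene Mep1a), all 10 were lower at an unadjusted p under 0.05, and the median log2 fold change was -3.29, beside 0.01 over all genes tested, of which 0.763% were called lower. DESeq2 and the exact test each called 9 of the 10, against 7.77% and 5.3% of all genes, and limma-voom 0, against 0.469%. Summed general epithelial genes stood at 6536 and 6269 CPM in IEC-/- tumours, against 8816 and 8166 in IEC+/+ tumours. Of these 20 genes 0 passed by edgeR's quasi-likelihood test, and the median log2 fold change was -0.37. At an unadjusted p under 0.05 by that test 12 were lower and 0 higher, against 9.12% and 7.50% of all genes. DESeq2 called 10 of the 20, the exact test 4 and limma-voom 0. With that epithelial sum as library size, Krt20 and Krt36 were both still called (log2 fold changes -2.46 and -1.39, adjusted p = 0.0294 and 0.0317), and Krt8 and Krt19 were at -0.55 and -0.54. The median of all genes moved by 0.41 on the log2 scale in that fit. Per Krt8 read there were 0.0317 and 0.0185 Krt20 reads in IEC-/-, against 0.0989 and 0.0913 in IEC+/+. The part of cell make-up in these levels was not tested.

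Keratins of stratified epithelium were high in IEC-/- replicate 2 and low to moderate in the other libraries. Krt5, the basal type II keratin (chromosome 15, 101707069 to 101712905), had 0 and 795 CPM in IEC-/- tumours, against 0.193 and 10.4 in IEC+/+ tumours. These are 0 and 20862 reads in IEC-/-, against 5 and 274 reads in IEC+/+. A count of 0 allows up to 0.108 CPM in that library. Krt14, the basal type I keratin (chromosome 11, 100203162 to 100207510), had 13.0 and 863 CPM in IEC-/- tumours, against 77.6 and 49.0 in IEC+/+ tumours. For both genes the IEC-/- libraries were the lowest and the highest of the 4, so the groups overlapped.

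Krt13 and Krt4, the pair of the upper layers of non-keratinising squamous epithelium, followed the same order at their top end. Krt13 had 4.64 and 279 CPM in IEC-/- tumours, against 31.1 and 22.5 in IEC+/+ tumours. Krt4 had 4.46 and 47.3 CPM in IEC-/- tumours, against 9.80 and 8.25 in IEC+/+ tumours. Krt16, a stress keratin of epidermis, had 0.360 and 14.7 CPM in IEC-/- tumours, against 0.309 and 1.32 in IEC+/+ tumours. In each of the 3, IEC-/- replicate 2 was above every other library. Krt42, a close relative of these type I genes, had 0 and 61 reads in IEC-/-, against 0 and 1 read in IEC+/+. The expression filter, which asks for enough reads in 2 libraries, kept it out of the test with all libraries. For Krt16, 28.9% of 75-base stretches occur in other transcripts, and for Krt14 5.91%, in that case shared with Krt16.

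Krt17, a keratin of basal and injured epithelium, had 14.5 and 120 CPM in IEC-/- tumours, against 9.76 and 13.4 in IEC+/+ tumours. Its groups did not overlap, yet replicate 1 of IEC-/- was close to IEC+/+ (log2 fold change 2.54, SE 0.92, adjusted p = 0.268). Krt15, a type I keratin of basal layers, broke the pattern, with 18.4 and 52.7 CPM in IEC-/- tumours, against 63.7 and 21.0 in IEC+/+ tumours. It was highest in IEC+/+ replicate 1.

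None of these keratins passed the test with all libraries, and the sign of Krt5, Krt14, Krt13, Krt4 and Krt16 turned when IEC-/- replicate 2 was left out, while Krt17 was then at 0.32. Over Krt5, Krt14, Krt13, Krt4, Krt16 and Krt17 the log2 fold changes ran from 1.52 to 6.23 and adjusted p-values from 0.268 to 0.506. With limma-voom on the same libraries they were smaller, at 1.18 for Krt5, 0.77 for Krt14, 0.39 for Krt13, 0.65 for Krt4, 1.77 for Krt16 and 1.84 for Krt17. Without IEC-/- replicate 2, Krt14 and Krt13 were called lower in IEC-/- (log2 fold changes -2.29 and -2.53, adjusted p = 0.0176 and 0.0152). Without IEC-/- replicate 1 they were called higher (3.76 and 3.37, adjusted p = 0.00309 and 0.00231), as were Krt5, Krt4, Krt16, Krt17 and Krt42. Such fits assume that the lone library varies like the others.

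**Figure D2:**
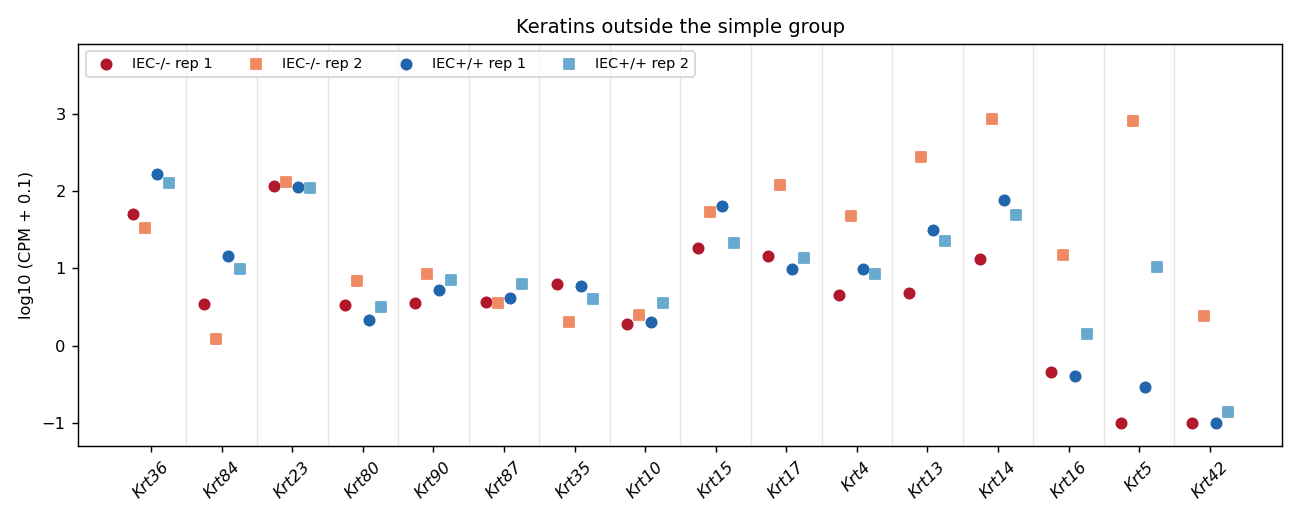
Level of 16 keratins outside the simple group on a log10 axis (CPM + 0.1), with the 2 IEC-/- libraries (red tones) left of the 2 IEC+/+ libraries (blue tones) for each gene; circles are replicate 1 and squares replicate 2. The orange squares of IEC-/- replicate 2 stand above the other libraries for Krt5 (795 CPM), Krt14 (863 CPM) and Krt13 (279 CPM), while Krt36 and Krt84 were lower in both IEC-/- libraries.

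Some markers of stratified squamous epithelium other than keratins were also far higher in IEC-/- replicate 2. Of 24 listed genes in the files, 19 were highest in that library, and the share of all genes highest there was not counted. Some of the 19 led by little. Tgm5 had 2.554 CPM there, against 2.535 in IEC+/+ replicate 2, and Ivl had 2 reads in each IEC-/- library. Trp63, the master regulator of stratified epithelium, had 2 and 892 reads in the IEC-/- libraries, against 0 and 23 reads in the IEC+/+ libraries. Calml3, a calmodulin-like gene of squamous cells, had 2 and 1612 reads in IEC-/-, against 4 and 12 in IEC+/+, and Col17a1, a hemidesmosome collagen, had 104 and 1314 reads, against 77 and 105. The number of list genes at 0 was 2 and 0 in IEC-/-, against 6 and 3 in IEC+/+; Krtdap and Cnfn were at 0 in IEC-/- replicate 1, and Trp63, Ivl, Krtdap, Cnfn, Lypd3 and Crct1 in IEC+/+ replicate 1. In IEC+/+ replicate 2 Ivl, Crct1 and Rptn were at 0.

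The summed level of the list was 219 and 659 CPM in IEC-/- tumours, against 729 and 545 in IEC+/+ tumours. The sum did not follow the basal keratins, but in IEC+/+ tumours most of it came from Sfn, Tgm3, Serpinb5 and Ly6d. Gene by gene, 19 of the 24 were highest in IEC-/- replicate 2, as were Krt5 and Krt14. Among the 19 was Ly6d, with 655 and 1968 reads in IEC-/-, against 1329 and 1790 in IEC+/+. Sfn, a 14-3-3 gene also active in other epithelia, had 102 and 204 CPM in IEC-/- tumours, against 370 and 298 in IEC+/+ tumours. On the log2 scale Serpinb5 and Tgm3 differed by -1.11 and -3.51 and did not pass (adjusted p = 0.0505 and 0.0873). Rptn, a cornified envelope gene, and Grhl3, an epithelial transcription factor, were higher in both IEC-/- libraries, with 14 and 43 reads of Rptn in IEC-/-, against 3 and 0 in IEC+/+, and a log2 fold change of 0.68 for Grhl3 (adjusted p = 0.199 and 0.294). Calml3 and Col17a1 were at 6.63 and 2.95 (adjusted p = 0.275 and 0.283). Lypd3 and Cnfn, with 564 and 122 reads in IEC-/- replicate 2 and few elsewhere, were removed by the expression filter. Of 19 list genes tested 0 were called by edgeR's quasi-likelihood test. Before adjustment (p under 0.05), 4 were higher and 3 lower, against 7.50% and 9.12% of all genes. DESeq2 and the exact test each called 3, against 7.77% and 5.3% of all genes, and limma-voom 0, against 0.469%. The part of squamous tissue in the keratin levels was not tested.

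**Figure D3:**
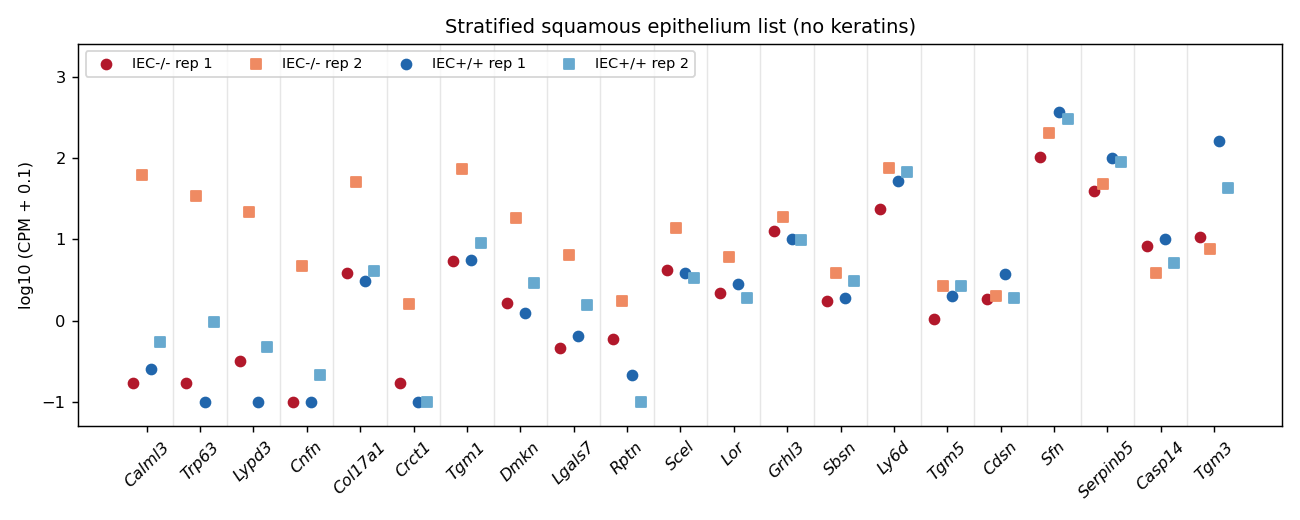
Level on a log10 axis (CPM + 0.1) of the 21 genes of the squamous list that reach 1 CPM in a library, in the 2 IEC-/- libraries (red tones) and the 2 IEC+/+ libraries (blue tones); circles are replicate 1 and squares replicate 2, and genes are ordered by how far IEC-/- replicate 2 exceeds the mean of the other libraries. Calml3, Trp63 and Lypd3 stand out in that library, while Sfn and Tgm3 were higher in IEC+/+.

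Krt14 was also present where Krt5 was nearly absent. IEC+/+ replicate 1 had 2010 reads of Krt14, 1650 of Krt15 and 806 of Krt13 beside 5 of Krt5 and 0 of Trp63. IEC-/- replicate 1 had 361 reads of Krt14, 511 of Krt15 and 129 of Krt13 beside 0 of Krt5 and 2 of Trp63. The Krt5 to Krt14 read ratio was 0 and 0.921 in IEC-/-, against 0.00249 and 0.212 in IEC+/+. Krt5 was thus near Krt14 in read count in IEC-/- replicate 2 only. In IEC+/+ replicate 2 it was well under Krt14, with 274 reads beside 1295. In replicate 1 of both groups the type I genes came with almost no Krt5.

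Krt6a and Krt6b, whose symbols carry a letter and which are no members, had the same order as Krt5. Krt6a had 1.26 and 587 CPM in IEC-/- tumours, against 14.6 and 18.7 in IEC+/+ tumours. Krt6b had 0.0360 and 338 CPM in IEC-/- tumours, against 0.463 and 3.78 in IEC+/+ tumours. Of their 75-base stretches, 37.5% (Krt6a) and 39.6% (Krt6b) occur in other transcripts, so their separate values are uncertain.

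Simple keratins held 93.6% and 60.0% of keratin counts in the IEC-/- libraries, against 93.1% and 93.4% in the IEC+/+ libraries. Keratin counts here leave out symbols with a letter, such as Krt6a and Krt6b. Those symbols had 37 and 24262 reads in IEC-/-, against 397 and 602 in IEC+/+. The exact 95% binomial interval for the low library was 59.7% to 60.2%, and these intervals cover counting error only. The other 3 libraries lay within 1 percentage point of each other. Summed simple keratins had 3641 and 3555 CPM in IEC-/- tumours, against 6873 and 5710 in IEC+/+ tumours, with no overlap. Summed other keratins had 248 and 2374 CPM in IEC-/- tumours, against 512 and 404 in IEC+/+ tumours. In IEC-/- replicate 2, 8 stratified keratins (Krt4, Krt5, Krt13, Krt14, Krt15, Krt16, Krt17 and Krt42, grouped after their values were seen) made up 91.6% of the other keratin counts. In IEC-/- replicate 1 they made up 22.3%, and in IEC+/+ 37.6% and 31.2%.

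**Figure D4:**
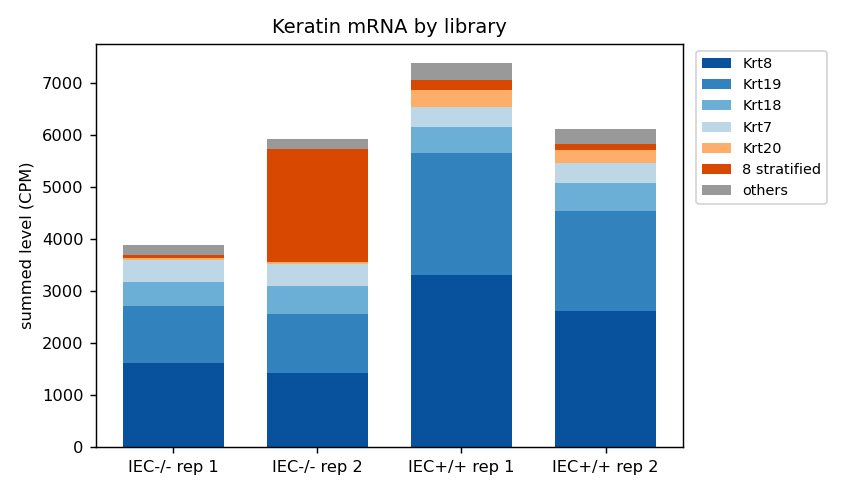
Stacked bars of summed keratin level in CPM (from 0) for each library, IEC-/- left of IEC+/+, with each of the 5 simple keratins (blue tones, Krt20 light orange), 8 stratified keratins (Krt4, Krt5, Krt13, Krt14, Krt15, Krt16, Krt17, Krt42; dark orange) and the remaining members (grey). The simple part was 3641 and 3555 CPM in IEC-/-, against 6873 and 5710 in IEC+/+, and the stratified part reached 2174 CPM in IEC-/- replicate 2.

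Krt23, a type I keratin described in gastrointestinal tumours, had 115 and 132 CPM in IEC-/- tumours, against 114 and 108 in IEC+/+ tumours, and did not pass (log2 fold change 0.15, 95% interval -0.17 to 0.47, adjusted p = 0.615). Krt80, an epithelial type II keratin, had 3.27 and 6.75 CPM in IEC-/- tumours, against 2.08 and 3.07 in IEC+/+ tumours (adjusted p = 0.401). Krt10, the type I keratin of cornifying epidermis, stayed between 1.83 and 3.44 CPM, and its partner Krt1 had at most 6 reads in a library. Krt90 stayed between 3.49 and 8.27 CPM. Krt75, a hair follicle keratin, had 11 and 18 reads in IEC-/-, against 0 and 0 in IEC+/+, at least 9.36-fold higher against a floor of 3 reads over the IEC+/+ group (adjusted p = 0.134).

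Of the 51 keratins 12 were listed at 0 in all libraries, among them Krt2 and Krt9 of epidermis and the hair follicle sheath genes Krt25, Krt26, Krt28, Krt71, Krt72 and Krt73. A further 13 had at most 18 reads in a library and a mean under 0.5 CPM in each group. Of the 26 tested, 2 fell and 0 rose at an adjusted p under 0.05, when 0.884% of all 16637 genes were called and 0.763% were called lower. The exact test of edgeR called 1 higher, Krt75, and DESeq2 and limma-voom 0. At an unadjusted p under 0.05, 5 were lower (Krt8, Krt19, Krt20, Krt36 and Krt84) and 2 higher (Krt17 and Krt75), against 9.12% and 7.50% of all genes. The groups did not overlap for 7 lower and 5 higher keratins, against 24.1% and 24.0% of all genes. Tested keratins had a median log2 fold change of -0.13, and all genes one of 0.01.

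**Figure D5:**
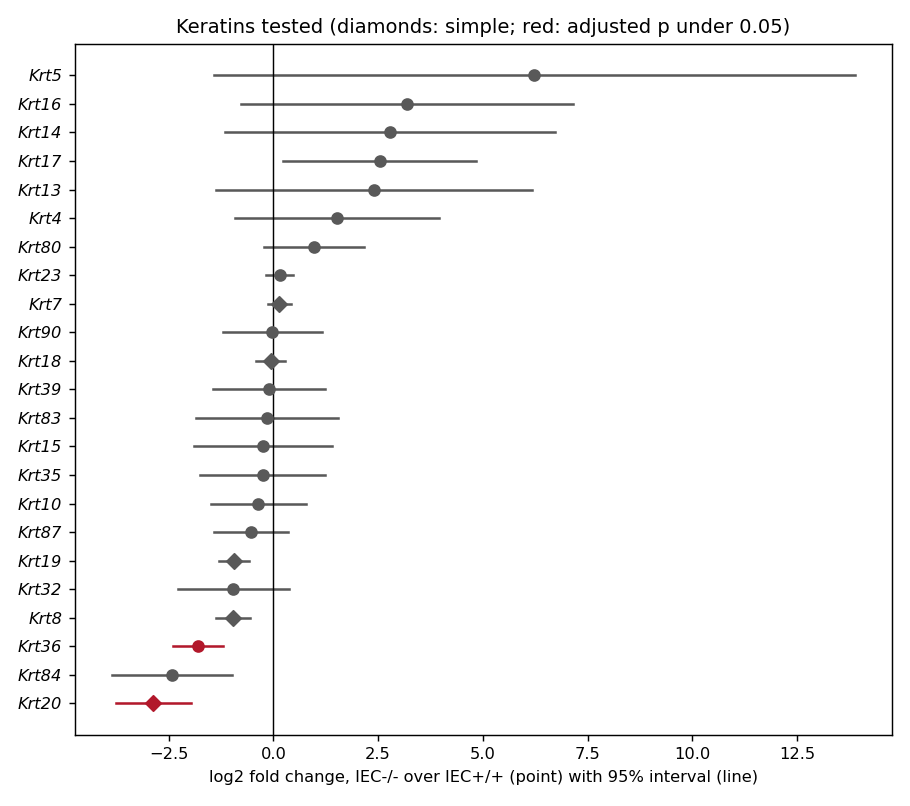
Log2 fold change, IEC-/- over IEC+/+ (horizontal axis, points), with 95% intervals (lines) for 23 named keratins tested that had reads in both groups; diamonds are simple keratins and red marks an adjusted p under 0.05. Krt20 (-2.86) and Krt36 (-1.80) are red, and the intervals of Krt5, Krt14 and Krt13 are wide and span 0.

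Among other intermediate filament genes, Vim was higher and Lmna, Bfsp1 and Nes lower in IEC-/-, none of them past the test. Vim, the vimentin gene, had 737 and 774 CPM in IEC-/- tumours, against 441 and 358 in IEC+/+ tumours. Its log2 fold change was 0.92 (SE 0.14, edgeR quasi-likelihood adjusted p = 0.0629). Both IEC-/- libraries were above both IEC+/+ libraries, the reverse of Krt8 and Krt19. The part of cell make-up in the Vim level was not tested. Lmna, a nuclear lamin, had 228 and 287 CPM in IEC-/- tumours, against 508 and 345 in IEC+/+ tumours (-0.73, adjusted p = 0.213). For Bfsp1, a beaded filament gene known from the lens, and Nes, the nestin gene, the values were -1.78 and -0.83 (adjusted p = 0.118 and 0.182). Of 13 such genes tested 0 passed by edgeR's quasi-likelihood test. Before adjustment (p under 0.05), 1 was higher and 4 were lower, against 7.50% and 9.12% of all genes. DESeq2 called 5, against 7.77% of all genes, the exact test 2, against 5.3%, and limma-voom 0, against 0.469%.

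Of 18 tested genes that anchor keratin filaments 0 passed by edgeR's quasi-likelihood test. At an unadjusted p under 0.05, 4 were lower and 2 higher, against 9.12% and 7.50% of all genes. DESeq2 called 5 of this list, against 7.77% of all genes, the exact test 2, against 5.3%, and limma-voom 0, against 0.469%. Plec, the plectin linker, had 389 and 348 CPM in IEC-/- tumours, against 770 and 620 in IEC+/+ tumours (log2 fold change -0.92, SE 0.15, adjusted p = 0.0715). The desmosomal cadherin genes Dsg2 and Dsc2 had -0.81 and -0.62 (adjusted p = 0.158 and 0.117). Ppl, the periplakin gene, went the other way, with 85.5 and 91.5 CPM in IEC-/- tumours, against 56.5 and 42.6 in IEC+/+ tumours (0.84, adjusted p = 0.0998). The median of the linker list was -0.27 on the log2 scale.

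Of 15 genes that bind or regulate keratins 0 passed by edgeR's quasi-likelihood test. At an unadjusted p under 0.05, 7 were lower and 1 higher, against 9.12% and 7.50% of all genes. DESeq2 called 6, against 7.77% of all genes, the exact test 5, against 5.3%, and limma-voom 0, against 0.469%. Cdx2, the intestinal identity factor, had 3.78 and 7.55 CPM in IEC-/- tumours, against 24.9 and 18.8 in IEC+/+ tumours (log2 fold change -1.95, SE 0.39, adjusted p = 0.0986). Klf4, a factor of differentiated epithelium, had 77.8 and 74.8 CPM in IEC-/- tumours, against 217 and 134 in IEC+/+ tumours (adjusted p = 0.0991). The groups did not overlap for either gene. Trim16 had -0.89 (adjusted p = 0.0874).

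Markers of other cell types had the following levels. In the mesothelial list, whose cells also carry simple keratins, Upk3b and Wt1 were at 0 in all libraries. Its summed level was 12.6 and 24.1 CPM in IEC-/- tumours, against 18.4 and 13.4 in IEC+/+ tumours. Within this sum Bnc1 had reads in IEC-/- replicate 2 alone, as Krt5 nearly did, with 156 reads (5.95 CPM). The urothelial list summed to 16.7 and 26.2 CPM in IEC-/- tumours, against 8.57 and 8.97 in IEC+/+ tumours, with Upk3a, a uroplakin gene, at 15.4 and 23.4 CPM in IEC-/- tumours, against 5.02 and 6.13 in IEC+/+ tumours (adjusted p = 0.0707). The other urothelial genes did not follow it, with log2 fold changes of -1.32 for Upk1a, 0.16 for Upk1b and -0.15 for Upk2. Their quasi-likelihood adjusted p-values were 0.425 to 0.972. Of the 4 urothelial genes DESeq2 and the exact test each called 1, against 7.77% and 5.3% of all genes, and limma-voom 0, against 0.469%. Stromal and smooth muscle genes summed to 2582 and 2290 CPM in IEC-/- tumours, against 3983 and 2368 in IEC+/+ tumours, and leukocyte genes to 176 and 220 CPM, against 121 and 134 CPM. These levels stand beside the keratin values, and their part in them was not tested.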

How the data were processed

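Polyadenylated RNA of mouse colon tumour tissue was sequenced in read pairs. The submitters' processing notes list TopHat, limma, edgeR and mm10; how reads were counted, with which annotation and whether by strand, is not given in the sources used here. Deposited by the authors was 1 file of raw, whole-number counts by gene symbol for each library.

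Counts were fitted with edgeR (4.0.16, R 4.3.3; quasi-likelihood F-test, group as the sole term, TMM scaling, default expression filter, 16637 genes kept). P-values were adjusted by Benjamini-Hochberg over these genes and called at 0.05. Standard errors come from the F statistic and intervals cover 95%. The fit was tested on simulated data. Alternatives were DESeq2 1.42.0, edgeR's exact test, limma-voom (limma 3.58.1), RLE, total-count and epithelial-list scaling, no filter, a replicate block and each library left out. Binomial intervals are Clopper-Pearson.

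RefSeq positions and GENCODE M21 principal transcript lengths, both GRCm38 (mm10), were found by symbol for 50 of 51 keratins, and promoter entries for 35. Antisense models overlapping exons of Krt5, Krt7 and Krt8 are not in the count table. Named keratins are the simple ones and others with a group mean of at least 0.5 CPM or an adjusted p under 0.05; 1 keratin is not reported here by name. Each list names at most 4 genes of smallest p; other list genes, Krt6a, Krt6b and the printed promoters were chosen after values were seen. Members and lists were chosen with earlier results of these data known.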

Additional observations from a re-analysis of the deposited data

How the results depend on the processing

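Keratin calls rested on few libraries. The 2 called keratins became 5 with DESeq2, 6 with edgeR's exact test and 4 with no expression filter. They became 1 with limma-voom, 1 with RLE scaling and 0 with total-count scaling (edgeR, 7 at an unadjusted p under 0.05), and stayed at 2 with epithelial-list scaling. The share of all tested genes called was 0.884% in the main fit, 7.77% with DESeq2, 5.3% with the exact test and 1.82% with no filter. That share was 0.469% with limma-voom, 0.86% with RLE, 0.499% with total-count and 6.7% with epithelial-list scaling. Leaving out a library gave 0 to 11 calls, 0 by edgeR without either IEC+/+ library (6 at an unadjusted p under 0.05 in each). With the replicate block 2 were called, Krt20 and Krt36 as before, and Krt14 and Krt13, uncalled, stood at 0.84 and 0.60; deviations of same-numbered libraries correlated at 0.160, and the numbers are not shown to pair the libraries. Of 299 single-gene values, 248 kept direction and side of the threshold, 17 gained a call in the same direction, 8 lost one and 26 changed sign, of which 2 also gained a call (Krt13 and Krt14 without IEC-/- replicate 2); the cause was not tested. Total-count and epithelial-list scaling moved the median of all genes by 0.11 and 0.41; relative to it Krt18 stood at -0.08 in both. With epithelial-list scaling the log2 fold change was positive for Krt10 (0.038), Krt15 (0.19), Krt18 (0.34), Krt35 (0.15), Krt39 (0.30), Krt83 (0.23) and Krt90 (0.38), and with total-count scaling for Krt18 (0.040), Krt39 (0.0015) and Krt90 (0.075). With a library left out it ran from -0.72 to 0.12 for Krt10, -2.53 to 3.37 for Krt13, -2.29 to 3.76 for Krt14, -1.20 to 0.76 for Krt15, -1.18 to 4.58 for Krt16, -0.20 to 0.044 for Krt18, -1.34 to 0.35 for Krt35, -0.41 to 0.14 for Krt39, -1.02 to 2.38 for Krt4, -10.15 to 10.97 for Krt5, -0.63 to 0.57 for Krt83 and -0.79 to 0.45 for Krt90. The simple share, IEC-/- minus IEC+/+, differed by -16.4 percentage points, and by -33.3 to 0.40 with a library left out, 0.40 being without IEC-/- replicate 2. With the letter-suffixed keratins added this difference was -20.2 points, and with Krt23 counted as simple it was -15.5. The type II to type I ratio differed by 0.051 in read counts, by -0.032 per kilobase and by -0.042 to 0.14 with a library left out.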
